A study of Mus musculus with 2 samples.

Results

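The genes described here are Nr4a1, Nr4a2, Nr4a3, Egr1, Egr2 and Egr3, which were chosen by symbol and make up 6 of the 31053 genes counted in each library. The libraries hold natural killer (NK) cells that had been sorted by flow cytometry from the brains of untreated, 8 month old female mice, and they were prepared with a 10x Genomics kit that reads the 5′ ends of transcripts. One library came from wildtype C57BL/6 animals. The other came from 3xTg-AD animals, an Alzheimer's disease model that carries human APP and tau transgenes under a neuronal promoter together with a mutant presenilin allele. The sources used here give neither the number of mice per library nor the strain background of the 3xTg-AD line. Each group is a single library, without replicates and without a test, so each difference below is one between these libraries.

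NR4A proteins are orphan nuclear receptors and EGR proteins are zinc-finger transcription factors. Both families are immediate early genes: their mRNAs appear soon after a cell is stimulated, without new protein synthesis, and decay quickly. In lymphocytes, calcium and MAP kinase signals from activating or antigen receptors induce them, and NK cells stimulated in this way also make the chemokines encoded by Ccl3, Ccl4 and Xcl1.

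The identifiers in the deposited files are ENSMUSG00000023034 for Nr4a1, ENSMUSG00000026826 for Nr4a2, ENSMUSG00000028341 for Nr4a3, ENSMUSG00000038418 for Egr1, ENSMUSG00000037868 for Egr2 and ENSMUSG00000033730 for Egr3. On mm10, Nr4a1 lies at chr15:101254269-101274795 (plus strand), Nr4a2 at chr2:57106830-57124003 (minus strand) and Nr4a3 at chr4:48045153-48086447 (plus strand). Egr2 lies at chr10:67535475-67542188 and Egr3 at chr14:70077203-70082614, both on the plus strand.

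The start regions of 4 of the members are shown, as listed by RefSeq for GRCm38.p6, with 2 kinds of motif marked in them. Egr2 had 5 listed start regions, and the one nearest to an annotated GENCODE start is shown. Whether the motifs bear on detection in the same barcodes was not tested. The first is the short cyclic AMP response element (CRE) site, CGTCA or TGACG on either strand, which CREB-family factors bind. The second is the CArG box, bound by serum response factor. In the 250 bases before the start, Nr4a1, Nr4a2 and Nr4a3 each held 4 short CRE sites, and Egr2 held 2 and 1 CArG box. Of 32851 RefSeq windows of that length, 17.8% held at least 1 short CRE site, 3.9% at least 2 and 0.137% at least 4, while 1.47% held a CArG box. The full palindromic CRE, which contains the short site, and the EGR site GCGTGGGCG were also searched and were in none of the 4. The window shares were not matched for GC content. It was 74.4% for Nr4a1, 80% for Nr4a2, 63.6% for Nr4a3 and 61.6% for Egr2, and the short CRE site itself holds a CG. A match describes letters only and was not linked to binding. The stretches are chr15:101266596-101266845 for Nr4a1, chr2:57124004-57124253 for Nr4a2 (minus strand), chr4:48045055-48045152 for Nr4a3, ended where an annotated exon begins and so with 3 of its 4 sites, and chr10:67537619-67537868 for Egr2. None overlaps an exon of its gene. Capitals mark the short CRE sites and, in Egr2, also the CArG box CCATATATGG.
Nr4a1: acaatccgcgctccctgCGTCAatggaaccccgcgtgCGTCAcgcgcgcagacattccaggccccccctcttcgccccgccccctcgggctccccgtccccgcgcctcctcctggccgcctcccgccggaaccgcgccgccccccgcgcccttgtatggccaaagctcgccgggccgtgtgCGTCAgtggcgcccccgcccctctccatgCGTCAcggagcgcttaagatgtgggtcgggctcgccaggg
Nr4a2: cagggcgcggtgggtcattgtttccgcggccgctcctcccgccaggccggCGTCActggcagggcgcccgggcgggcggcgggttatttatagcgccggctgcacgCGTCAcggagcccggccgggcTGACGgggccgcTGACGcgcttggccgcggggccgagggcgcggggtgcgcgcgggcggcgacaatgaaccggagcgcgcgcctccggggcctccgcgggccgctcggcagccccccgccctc
Nr4a3: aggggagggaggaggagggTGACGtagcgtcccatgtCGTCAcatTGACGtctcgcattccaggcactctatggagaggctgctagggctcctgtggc
Egr2: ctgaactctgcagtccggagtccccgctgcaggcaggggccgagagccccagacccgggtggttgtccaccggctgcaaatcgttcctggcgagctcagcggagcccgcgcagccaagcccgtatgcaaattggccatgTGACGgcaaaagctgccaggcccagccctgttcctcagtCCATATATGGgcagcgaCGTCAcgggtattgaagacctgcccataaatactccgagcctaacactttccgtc

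The libraries held 1709 wildtype and 1695 3xTg-AD barcodes, with 5559995 and 5468455 unique molecular identifiers (UMIs, each a counted mRNA molecule), and shared 1 barcode sequence. Quality filters kept 1649 and 1663. NK barcodes, called by 2 or more UMIs of Ncr1, Klrb1c, Klre1, Prf1 and Eomes, numbered 1488 and 1528. Barcodes like type 1 innate lymphoid cells (ILC1-like), tissue-resident relatives of NK cells, were called by 3 or more UMIs of Itga1, Cxcr6, Inpp4b, Gzmc and Tnfsf10 and numbered 101 and 79. Some genes outside these gates separated the classes: Gzma was found in 94.7% and 97.0% of NK against 45.9% and 21.5% of ILC1-like barcodes, and Ltb in 10.0% and 6.58% of NK against 51.0% and 53.2% of ILC1-like barcodes. Others did so less, with overlapping intervals. Il7r was found in 5.03% and 2.15% of NK against 6.12% and 7.59% of ILC1-like barcodes, and Rora in 1.75% and 2.42% against 3.06% and 3.80%. ILC1-like barcodes were deeper (medians of 5387 and 5559 UMIs against 2872.5 and 2790.5). Their gate counted unthinned UMIs, which favours deep barcodes, and on thinned UMIs it called 39 and 16. Because of the unequal depth, shares of barcodes with a UMI are given after each was thinned at random to 1400 UMIs. That left 1373 wildtype and 1444 3xTg-AD NK barcodes and 98 and 79 ILC1-like ones. Values are given in the order wildtype, 3xTg-AD. All intervals are 95% and cover counting error only.

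The members were found in a minority of NK barcodes. At least 1 of the 6 was detected in 110 of 1373 thinned wildtype NK barcodes, 8.01% (6.63 to 9.58), and in 151 of 1444 3xTg-AD ones, 10.5% (8.93 to 12.2). Unthinned, the shares were 12.9% and 15.9%. Any Nr4a gene was detected in 4.88% and 6.65%, and any Egr gene in 4.30% and 4.99%.

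Among the nuclear receptors, Nr4a1, which encodes NUR77, was detected in 26 wildtype NK barcodes, 1.89% (1.24 to 2.76), and 45 3xTg-AD ones, 3.12% (2.28 to 4.15). Before thinning it was present in 44 and 72 barcodes, 2.96% and 4.71%. Its UMIs were unevenly spread: the highest barcode held 35 and 28 UMIs, and the 10 highest barcodes held 71.7% of the 138 wildtype UMIs and 55.3% of the 246 3xTg-AD UMIs. Nr4a2, which encodes NURR1, was detected in 29 thinned barcodes, 2.11% (1.42 to 3.02), and in 37, 2.56% (1.81 to 3.51). It lacked such high barcodes, with at most 5 and 8 UMIs in one barcode and a single UMI in 58 of 68 and 64 of 79 positive ones. Nr4a3, which encodes NOR1, was detected in 20 thinned barcodes, 1.46% (0.892 to 2.24), and in 29, 2.01% (1.35 to 2.87), with at most 9 and 5 UMIs in a barcode before thinning. Nr4a1 thus differed from Nr4a2 and Nr4a3 in having a few barcodes with 10 or more UMIs, 4 in wildtype and 5 in 3xTg-AD against none.

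Among the zinc-finger factors, Egr1 was detected in 48 thinned wildtype NK barcodes, 3.50% (2.59 to 4.61), and 51 3xTg-AD ones, 3.53% (2.64 to 4.62). Its highest barcodes held 22 and 29 UMIs before thinning, and the top 10 held 42.6% of 176 and 41.9% of 210 UMIs. Egr2, which is also induced through NFAT in T cells, was detected in 11 thinned barcodes, 0.801% (0.401 to 1.43), and in 23, 1.59% (1.01 to 2.38). Egr3 was found in 5, 0.364% (0.118 to 0.848), and in 7, 0.485% (0.195 to 0.996). No barcode held more than 4 UMIs of Egr2 or 3 of Egr3. For Nr4a1, Nr4a2, Nr4a3, Egr2 and Egr3 the share was larger in the 3xTg-AD library, with intervals that overlapped between the libraries, and for Egr1 the shares were nearly equal. For Egr3 the direction turned at another depth, with a share ratio of 0.804 when barcodes were thinned to 1000 UMIs.

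**Figure D1:**
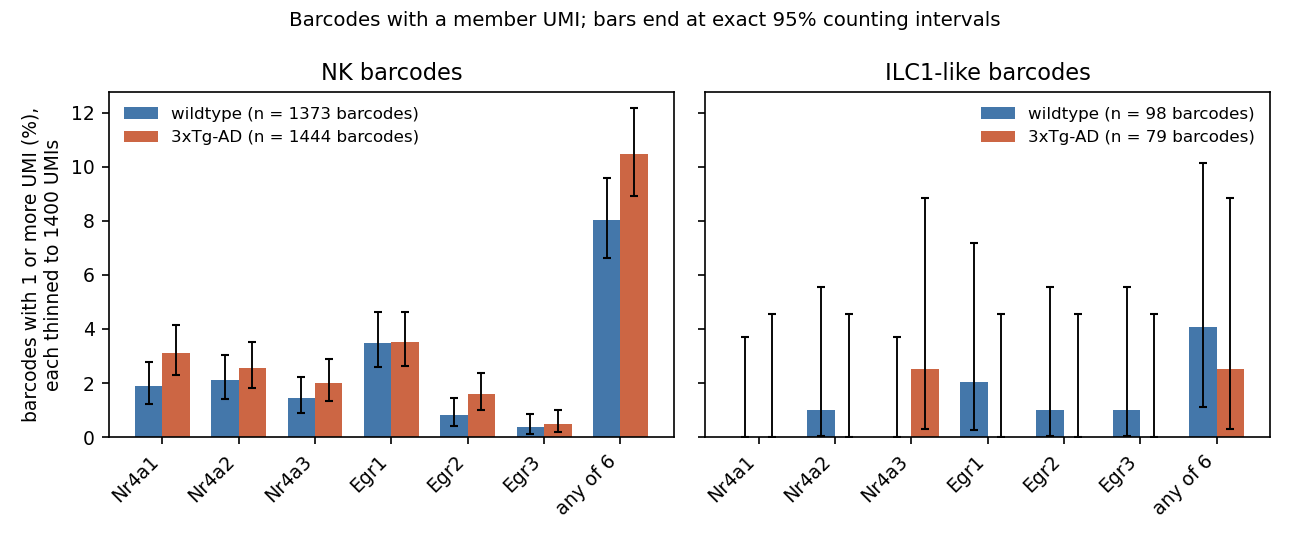
Share of barcodes with 1 or more UMI of each member and of any of the 6 (y axis, %), after thinning to 1400 UMIs, in NK barcodes (left) and ILC1-like barcodes (right) of the wildtype and 3xTg-AD libraries. Error bars are exact Clopper-Pearson intervals. In NK barcodes any member reached 8.01% and 10.5%, and in ILC1-like barcodes 4.08% and 2.53% with wide intervals.

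Summed over NK barcodes, the members had more UMIs in the 3xTg-AD library. Together they gave 494 UMIs of 4641535, or 106 CPM (counts scaled to a common total of UMIs in the class), in wildtype and 719 of 4678241, or 154 CPM, in 3xTg-AD, a ratio of 1.44 (1.29 to 1.62). Nr4a1 had 29.7 and 52.6 CPM, a ratio of 1.77 (1.43 to 2.19). Nr4a3 had 56 and 83 UMIs, 12.1 and 17.7 CPM, a ratio of 1.47 (1.04 to 2.10). Egr2 had 22 and 44 UMIs, 4.74 and 9.41 CPM, a ratio of 1.98 (1.16 to 3.48). These are the 3 members whose interval lay above 1. For Nr4a3 that was lost under 5 alternatives, with lower bounds of 0.996 with scaling by the median gene and in barcodes with 1000 or more genes, 0.991 with the ILC1 gate at 5, 0.990 in NK-like clusters and 0.807 after thinning.

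Nr4a2 had 87 and 111 UMIs, 18.7 and 23.7 CPM, and its ratio of 1.27 had an interval that held 1 (0.947 to 1.70). Egr3, with 15 and 25 UMIs (3.23 and 5.34 CPM), had a ratio of 1.65 and a wide interval (0.838 to 3.37). For Egr1 the ratio of 37.9 to 44.9 CPM was 1.18 (0.964 to 1.45), which turned to 0.928 when the UMIs were summed after thinning and to 0.949 as a mean of per-barcode CPM. It was 1.41 (1.14 to 1.76) without the 10% of barcodes with the largest heat-shock share and 1.24 in barcodes with 1000 or more genes, both with intervals above 1. The direction for Egr1 thus depended on the setting. By point ratio, 3 of the 6 members (Nr4a1, Egr2 and Egr3) were at least 1.5-fold higher and none lower, where, of 9842 genes with 20 or more UMIs, 6.46% lay as far above and 5.65% as far below in 3xTg-AD. The members' median log2 ratio was 0.64, against 0.05 over those genes. Among genes with 100 or more UMIs, 1 of 4 members (Nr4a1) passed 1.5-fold upward and none downward, against 3.52% and 2.35% of 7226 genes.

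The ratio of detected shares after thinning, which a few barcodes with many UMIs cannot set, was 1.65 for Nr4a1 (0.994 to 2.78), 1.99 for Egr2 (0.931 to 4.52) and 1.38 for Nr4a3 (0.754 to 2.57). It was 1.21 for Nr4a2 (0.726 to 2.05), 1.33 for Egr3 (0.364 to 5.32) and 1.01 for Egr1 (0.668 to 1.53). Each of these 6 intervals held 1, and that of any member, 1.31 (1.01 to 1.68), lay just above it. Counting intervals of summed UMIs leave out variation between cells and are too narrow where few barcodes hold most UMIs, as for Nr4a1 and Egr1.

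Heat-shock genes, which respond to stress on protein folding and to tissue handling, moved with the library. In 3xTg-AD NK barcodes 9 of 11 measured were at least 1.5-fold higher, against 6.46% of 9842 genes with 20 or more UMIs. These 9 included Hspa1b at 4.59-fold (12.7 and 58.4 CPM), Hspa1a at 3.33-fold, Hsph1 at 2.86-fold and Stip1 at 2.44-fold. Hspa1a and Hspa1b are near-identical copies, so their split is uncertain. Without the 10% of barcodes with the largest heat-shock share, the ratio was 1.66 for Nr4a1, 1.29 for Nr4a2, 1.5 for Nr4a3, 1.91 for Egr2, 1.96 for Egr3 and 1.51 for all members. For Egr1 it was 1.41 (1.14 to 1.76), an interval above 1. Within a library, thinned NK barcodes with 0, 1 and 2 or more members detected had means of 5.18, 5.43 and 5.36 heat-shock UMIs in wildtype, and 9.69, 9.96 and 10.4 in 3xTg-AD. Most of these UMIs came from Hspa8 and Hsp90ab1. Hspa1a alone was 1.58-fold and 1.90-fold higher in member-positive barcodes, on 33 and 121 thinned UMIs, and Hspa1b 0.499-fold and 1.05-fold. The part of heat shock or handling in the member values was not tested.

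**Figure D2:**
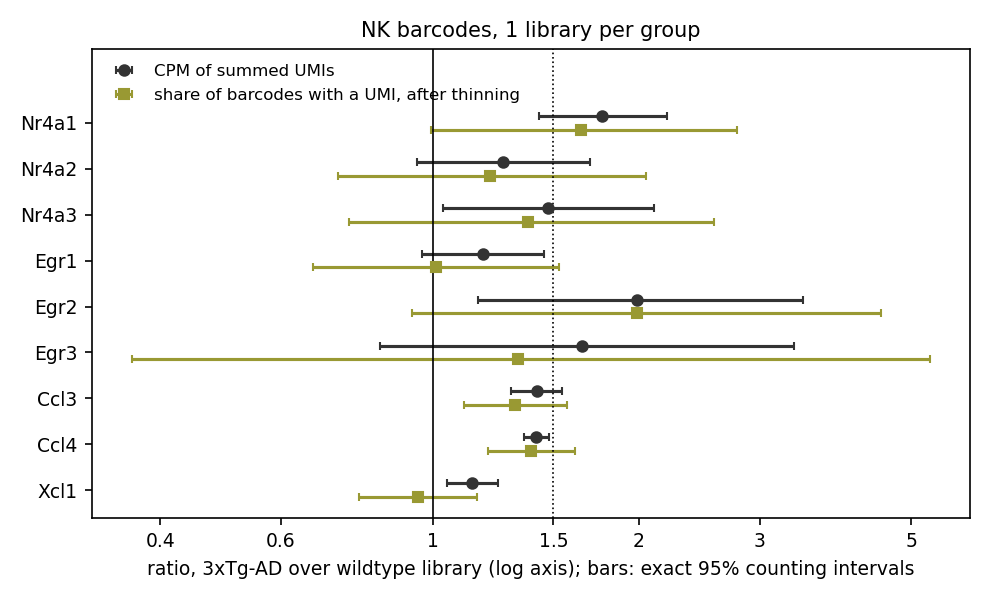
Ratio of the 3xTg-AD over the wildtype library in NK barcodes (x axis, log scale) for each member and 3 chemokine genes. Circles are ratios of CPM, squares are ratios of the share of thinned barcodes with a UMI, bars are exact counting intervals, and the dotted line marks 1.5-fold. Nr4a1, Egr2 and Nr4a3 have CPM intervals above 1, while every member's share interval holds 1.

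In ILC1-like barcodes the members were scarcer than in NK barcodes of the 3xTg-AD library. Any member was detected in 4 of 98 thinned wildtype barcodes, 4.08% (1.12 to 10.1), and in 2 of 79 3xTg-AD ones, 2.53% (0.308 to 8.85). The NK share was 1.96 times the ILC1-like share in wildtype (0.745 to 7.33) and 4.13 times in 3xTg-AD (1.12 to 34.4). Nr4a1 was in none of the thinned ILC1-like barcodes, where 3 counts of the total allow a share of barcodes with a UMI of up to 3.06% and 3.80%, and the exact upper bounds are 3.69% and 4.56%. Over all ILC1-like barcodes, unthinned, the UMIs were 2 and 0 for Nr4a1, 6 and 1 for Nr4a2, 2 and 3 for Nr4a3, 16 and 2 for Egr1, 3 and 1 for Egr2, and 2 and 0 for Egr3. No member reached 20 UMIs there, so none entered a count past 1.5-fold.

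Together the members had 31 UMIs in the wildtype ILC1-like barcodes and 7 in the 3xTg-AD ones, 52.1 and 15.5 CPM, a ratio of 0.297 (0.110 to 0.686). One wildtype barcode held 13 of the 31 UMIs, 11 of them from Egr1. Without it, which was tried after seeing the data, the ratio was 0.502 (0.177 to 1.26), and after thinning it was 0.744 (0.116 to 3.83). Without that barcode, or after thinning, the interval therefore held 1, while the ratio stayed below 1. The chemokine genes split between the classes: Xcl1 was detected in 66.3% and 72.2% of thinned ILC1-like barcodes against 14.8% and 14.1% of NK barcodes, whereas Ccl4 was in 4.08% and 10.1% against 23.1% and 32.1%, and Ccl3 in 2.04% and 2.53% against 16.5% and 21.8%. In ILC1-like barcodes, where Xcl1 was most often detected, any member was thus found in 4.08% and 2.53%, against 8.01% and 10.5% of NK barcodes. Unthinned, these shares were 11.9% and 6.33% against 12.9% and 15.9%, but they are not at equal depth. The ILC1-like barcodes had median depths of 5387 and 5559 UMIs against 2872.5 and 2790.5. By CPM, the members together had 52.1 and 15.5 in ILC1-like against 106 and 154 in NK barcodes. In wildtype, the thinned NK share was 1.96 times the ILC1-like share, with an interval that held 1 (0.745 to 7.33).

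Within NK barcodes a member was detected more often where another member was detected too. Of the member-positive thinned barcodes, 22 of 110 in wildtype and 29 of 151 in 3xTg-AD held 2 or more different members. A single wildtype barcode held 5 members and 4 3xTg-AD barcodes held 4. Egr1 was detected in 7 of 26 Nr4a1-positive wildtype barcodes, 26.9% (11.6 to 47.8), against 3.04% of Nr4a1-negative ones, and in 13 of 45 in 3xTg-AD, 28.9%, against 2.72%. At 2000 UMIs per barcode the ratio of these shares was 3.77 (0.988 to 10.3) in wildtype, compared with 8.85 at 1400, and in 3xTg-AD it was 8.63, compared with 10.6. These values come from barcodes of 1 library each, which share their depth and preparation.

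Some pairs within a family were found together as well. Nr4a3 was in 15.4% and 17.8% of Nr4a1-positive barcodes, against 1.19% and 1.5% of the others. Egr1 was in 4 of 11 and 7 of 23 Egr2-positive barcodes, 36.4% and 30.4%, against 3.23% and 3.1%. Egr3 was in 0 of 11 and 0 of 23 Egr2-positive barcodes, with exact upper bounds of 28.5% and 14.8%. Nr4a2-positive barcodes held Nr4a1 in 3 of 29 and 6 of 37, Nr4a3 in 2 of 29 and 2 of 37, and Egr1 in 17.2% and 10.8%, against 3.20% and 3.34% of Nr4a2-negative ones.

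**Figure D3:**
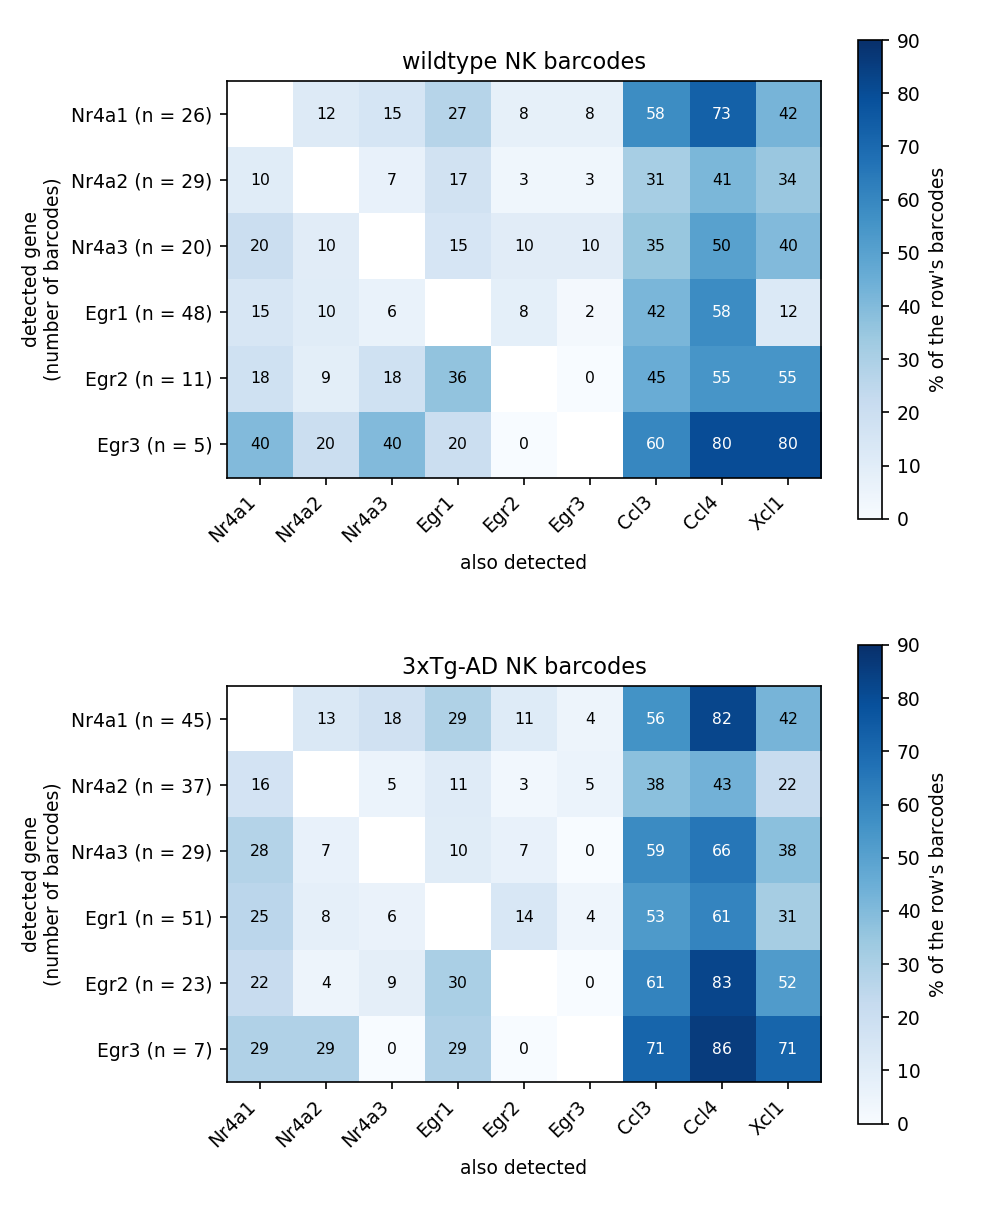
For NK barcodes in which the gene on the y axis was detected after thinning (number in brackets), the percentage in which the gene on the x axis was also detected, in the wildtype (top) and 3xTg-AD (bottom) libraries. Egr1 was found in 26.9% and 28.9% of Nr4a1-positive barcodes, and the darkest cells lie in the Ccl4 column. Rows for Egr3 rest on 5 and 7 barcodes.

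The 3 chemokine genes were concentrated in the same barcodes as the members. Ccl4 and Ccl3, which encode secreted chemokines that attract leukocytes, had means of 8.25 and 1.24 UMIs in wildtype NK barcodes with a member UMI against 0.530 and 0.219 in those without, after thinning. In 3xTg-AD the means were 8.01 and 1.44 against 0.763 and 0.272. Xcl1, which encodes the XCR1 ligand lymphotactin, had means of 1.27 against 0.242 in wildtype and 0.934 against 0.224 in 3xTg-AD. The member-positive 8.01% and 10.5% of NK barcodes thereby held 57.6% and 55.1% of all Ccl4 UMIs, 32.9% and 38.1% of Ccl3 UMIs and 31.4% and 32.8% of Xcl1 UMIs.

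The more members a barcode held, the more often it had 2 or more chemokine UMIs. For Ccl4 the share was 7.05% at 0 members, 30.7% at 1 and 59.1% at 2 or more in wildtype. The same steps in 3xTg-AD were 12.7%, 39.3% and 89.7%. For Ccl3 they were 4.28%, 17.0% and 11 of 22, and 4.95%, 18.9% and 58.6%. For Xcl1 they were 5.23%, 11.4% and 31.8%, and 4.25%, 13.9% and 34.5%. The barcodes with 2 or more members number 22 and 29, so the last value of each series has a wide interval, for Ccl4 36.4 to 79.3 in wildtype and 72.6 to 97.8 in 3xTg-AD. Median unthinned depth along these steps was 2977, 2995.5 and 2918.5 UMIs in wildtype and 2826, 2914.5 and 3018 in 3xTg-AD.

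**Figure D4:**
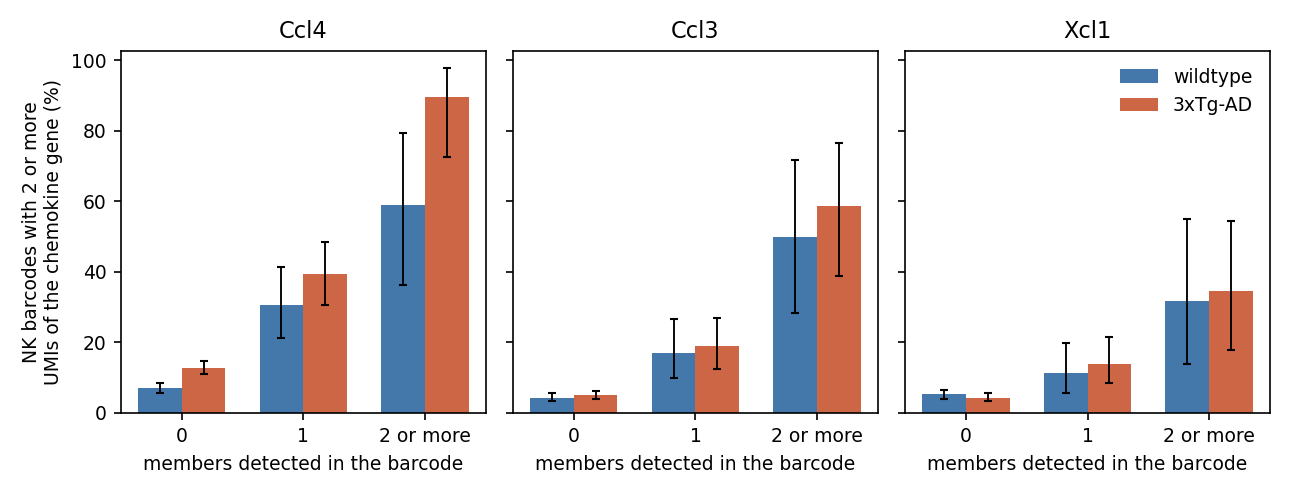
Share of thinned NK barcodes with 2 or more UMIs of Ccl4, Ccl3 or Xcl1 (y axis, %) by the number of the 6 members detected in the barcode (x axis), for each library, with exact counting intervals. Ccl4 stands at 7.05% and 12.7% with 0 members and at 59.1% and 89.7% with 2 or more.

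Read the other way, members were found in 54 of 1056 wildtype NK barcodes with no Ccl4 UMI, 5.11% (3.86 to 6.62), and in 29 of 57 with 5 or more, 50.9% (37.3 to 64.4). In 3xTg-AD the values were 61 of 980, 6.22% (4.79 to 7.92), and 50 of 99, 50.5% (40.3 to 60.7). At 5 or more Ccl4 UMIs the member share was thus almost the same in the libraries, while such barcodes were 57 of 1373 in wildtype and 99 of 1444 in 3xTg-AD. About as many Ccl4-high barcodes had no member UMI as had one.

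The members differed in how closely they went with Ccl4. Of Nr4a1-positive barcodes, 16 of 26 in wildtype and 33 of 45 in 3xTg-AD had 2 or more Ccl4 UMIs, 61.5% and 73.3%, against 8.39% and 14.7% of Nr4a1-negative ones. For Egr2 the shares were 45.5% and 73.9%, for Egr1 39.6% and 54.9%, and for Nr4a3 35.0% and 58.6%. Egr3 had the largest shares, 4 of 5 and 6 of 7, but on the fewest barcodes. Nr4a2 had the smallest, 31.0% and 29.7%, against 8.93% and 16.1% of Nr4a2-negative barcodes. With 20 to 51 positive barcodes for Nr4a1, Nr4a2, Nr4a3 and Egr1, the order was not tested. Xcl1 followed another order in wildtype, where 2 or more UMIs were seen in 8 of 20 Nr4a3-positive but 8.33% of Egr1-positive barcodes, close to the 5.96% of Egr1-negative ones. In 3xTg-AD these were 24.1% and 21.6%. Of the few Egr3-positive barcodes, 3 of 5 in wildtype and 4 of 7 in 3xTg-AD had 2 or more Xcl1 UMIs.

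Between the libraries, Ccl3 had 905 and 1294 UMIs and Ccl4 3734 and 5328 in NK barcodes, both 1.42-fold by CPM, close to the 1.44-fold of the members together. Xcl1 was 1.14-fold higher by CPM (996 and 1146 UMIs), but 0.917-fold by UMIs summed after thinning and 0.951-fold by share of thinned barcodes, so it has no stable direction. All of these share the same libraries as the member values and are set beside them without a test.

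To name the genes whose pattern across NK barcodes was most like that of the members, 1409 other genes with 200 or more thinned UMIs in each library were ranked by mean level in member-positive over member-negative barcodes, using the lower of the libraries. Ccl4 led (15.6-fold in wildtype and 10.5-fold in 3xTg-AD), followed by Ccl3 (5.64 and 5.28) and Xcl1 (5.25 and 4.18). Next were Nfkbia, the NF-κB inhibitor gene (3.01 and 4.11), Zfp36, which encodes an mRNA-decay protein (2.37 and 2.80), and the immediate early gene Ier2 (2.35 and 2.10). Dusp2, a MAP kinase phosphatase gene, stood at 2.07 and 1.99, Zfp36l1 at 1.98 and 1.88, the kinase gene Pim1 at 1.96 and 1.70, and the AP-1 gene Junb at 2.24 and 1.62. Gem (1.5 and 1.77) and Zfp36l2 (1.59 and 1.48) closed the 12. These are ratios of means, which a few high barcodes can set: 1 wildtype barcode held 125 thinned Ccl4 UMIs. By share of barcodes with a UMI, the ratios were 2.46 and 2.06 for Ccl4, 2.38 and 2.58 for Ccl3, and 1.99 and 2.51 for Xcl1. Of the single members, only Egr1 had 30 positive barcodes in each library, and its top 3 were Ccl4, Ccl3 and Zfp36.

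Ranked with the Nr4a genes alone, Nfkbia took rank 3, at 4.33 and 5.42, and with the Egr genes alone rank 8, at 1.72 and 3.03. Zfp36 took rank 10 with the Nr4a genes (1.78 and 3.03) and rank 4 with the Egr genes (3.11 and 2.54). Some low genes were below the UMI minimum and were picked out after their values were seen: Nfkbid, another NF-κB regulator gene, was 7.28-fold and 8.91-fold higher in member-positive barcodes on 67 and 100 UMIs. Gadd45b, a stress-response gene, was 4.59-fold and 11.9-fold higher on 35 and 55. Ifng, the interferon-γ gene, was 2.79-fold and 3.21-fold higher on 87 and 77. Of the 5 NK genes used for the gate, Ncr1 stood at 1.04 and 0.982, Klrb1c at 1.04 and 0.998, Klre1 at 0.939 and 0.949, Eomes at 1.05 and 0.997, and the perforin gene Prf1 at 1.21 and 1.19. Among NK genes outside the gate, S1pr5 stood at 0.754 and 0.857, and Gzma at 0.983 and 0.861. Klrg1 (0.929 and 1.05), Klra8 (0.797 and 1.07) and Itgam (0.812 and 1.80) were lower in wildtype member-positive barcodes but higher in 3xTg-AD ones. Cma1 stood at 1.001 and 0.794, so these genes had no common direction. Microglia and macrophage markers were nearly absent in all thinned NK barcodes, at no more than 7 UMIs of any of 6 genes in a library, with Csf1r and P2ry12 at 0. Barcodes with 3 or more summed UMIs of these 6 genes had been left out of the NK class, so low values were set by the gate.

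**Figure D5:**
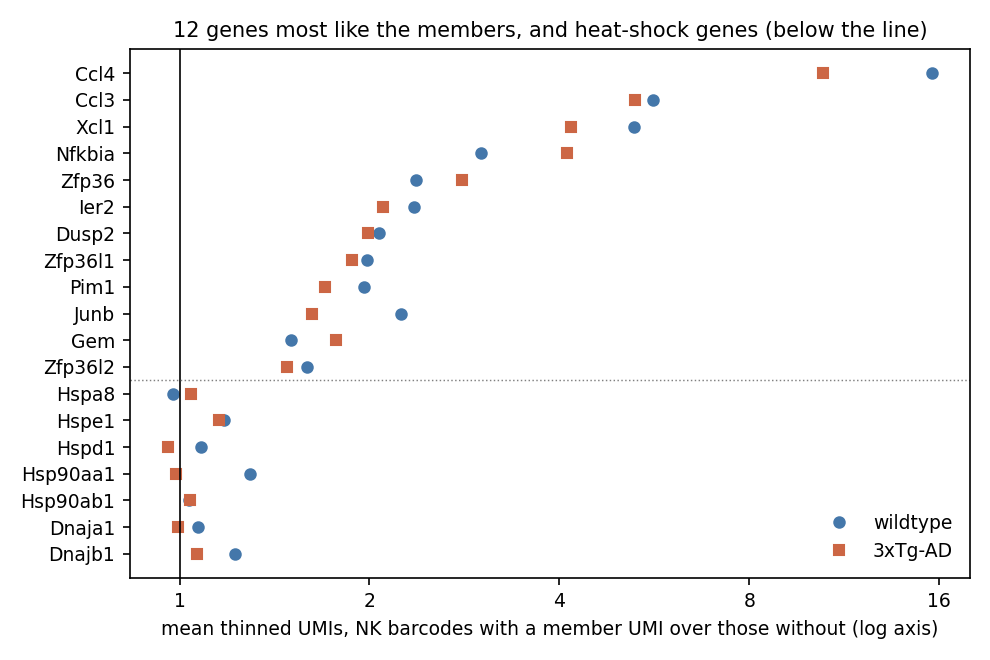
Mean thinned UMIs in NK barcodes with a member UMI over those without (x axis, log scale), for the 12 most similar genes in rank order and, below the dotted line, the heat-shock genes with 200 or more UMIs in each library. Ccl4 lies at 15.6 and 10.5, while Hspa8 lies at 0.976 and 1.04.

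Other genes of the pathway were described from lists. Of all 9842 genes with 20 or more UMIs, 6.46% passed 1.5-fold upward in 3xTg-AD NK barcodes and 5.65% downward. Of 16 measured immediate early genes downstream of serum response factor and MAP kinase, 3 passed 1.5-fold upward in 3xTg-AD NK barcodes and 2 downward, and the list had a median log2 ratio of 0.21 against 0.05 over all genes. The higher ones were Fos, an AP-1 subunit gene (57 and 193 UMIs, 3.36-fold), Jun, its partner (239 and 581, 2.41-fold), and Dusp1, a MAP kinase phosphatase gene (69 and 170, 2.44-fold). The lower ones were Atf3 (26 and 14 UMIs, ratio 0.534, 0.258 to 1.06) and Srf itself (82 and 54, ratio 0.653, 0.455 to 0.932), the latter named after its value was seen. Fos and Jun thus had larger ratios than any member. Within a library, Jun was not tied to the members, at 0.843-fold and 1.31-fold in member-positive barcodes, while Fos was, at 2.87-fold and 3.20-fold on 35 and 92 UMIs.

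Of 23 measured genes triggered through receptors and NFAT, 2 passed 1.5-fold upward and 2 downward, and the median log2 ratio was 0.19. These shares are near those of all genes with 20 or more UMIs, 6.46% and 5.65%. Dusp6 was higher (49 and 84 UMIs, ratio 1.70, 1.18 to 2.47), and so was Tnf on 16 and 25 UMIs (1.55, 0.796 to 3.11). Cd69, an early surface marker of activation, had fewer UMIs in 3xTg-AD (112 and 72, ratio 0.638, 0.468 to 0.865), as did the costimulatory receptor gene Icos (49 and 30, ratio 0.607). Cd69 thus went against the members between the libraries, although in member-positive barcodes it was 2.58-fold and 1.90-fold higher, on 49 and 33 thinned UMIs.

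Of 8 EGR partners and targets, none was at least 1.5-fold higher and 1 was lower, Id3 (14 and 7 UMIs, ratio 0.496, 0.169 to 1.31). Id2, which the NK lineage requires, had a ratio of 0.691 (2299 and 1602 UMIs), short of that size, and the ubiquitin ligase gene Cblb and the diacylglycerol kinase gene Dgkz had ratios of 1.14 and 1.16. Of 7 measured NR4A partners and NFAT-linked genes, 2 were at least 1.5-fold higher, Gadd45a (23 and 52 UMIs, 2.24-fold) and Gadd45b (77 and 133, 1.71-fold). For both lists the shares over all genes with 20 or more UMIs are again 6.46% higher and 5.65% lower. The survival gene Bcl2 had a ratio of 0.705 (1750 and 1244 UMIs). Each of these 4 lists had a smaller median log2 ratio than the members' 0.64, while that of the heat-shock genes was 1.01.

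NK cells lose Cd27 and gain Klrg1 as they mature, so NK barcodes were also split by these genes after thinning. Any member was detected in 10 of 64 wildtype barcodes with Cd27 only, 15.6% (7.76 to 26.9), against 35 of 459 with Klrg1 only, 7.63% (5.37 to 10.4), and 65 of 843 with neither, 7.71%. In 3xTg-AD the values were 12 of 50, 24.0% (13.1 to 38.2), 46 of 426, 10.8% (8.01 to 14.1), and 90 of 956, 9.41%. The share was larger in the 3xTg-AD library in each of these 3 ranges, with overlapping intervals. The Cd27-only share was 2.05 times the Klrg1-only share in wildtype (0.905 to 4.23) and 2.22 times in 3xTg-AD (1.07 to 4.26), and split on all UMIs the ratios were 1.35 (0.652 to 2.58) and 1.72 (0.926 to 3.01). Nr4a2 was the member most often found at Cd27 only in wildtype, in 6 of 64 barcodes, 9.38%, against 1.74% at Klrg1 only. In 3xTg-AD it was found in 4 of 50, 8.00%, against 3.29%, alongside Egr1, also in 4 of 50.

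No class of barcodes in these libraries is known to lack the members, so the part of free mRNA in the shares was not tested. Among T cell barcodes (19 and 18, median depths of 3150 and 4239.5 UMIs), 1 wildtype barcode held Nr4a2 and 1 3xTg-AD barcode held Nr4a3, unthinned. In 31 3xTg-AD microglia and macrophage barcodes (median 3505 UMIs), Egr1 was in 4, 12.9% (3.63 to 29.8), with 27 UMIs or 228 CPM, and Nr4a1 in 2, while the 8 wildtype ones held no member UMI.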

How the data were processed

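The authors deposited, for each library, a matrix of raw UMI counts per gene and barcode, with no normalization. Cell Ranger 3.1.0, STAR and mm10 are named in the submitters' processing notes, and per the file headers the matrices were written by software version 3.0.2. No source used here names the annotation release. The genes and gene lists were chosen with earlier results of these data known.

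Barcodes with fewer than 300 genes (45 wildtype and 10 3xTg-AD), more than 10% mitochondrial UMIs (2 and 0) or a Scrublet doublet call within their library (13 and 22) were left out. Barcodes with 3 or more UMIs of T cell, B cell, microglia and macrophage, or endothelial and glial markers, or with over 20% erythroid or neutrophil UMIs, were not counted as NK or ILC1-like. These gates use no member gene. Counts were summed per library and class and expressed as CPM of that class. Ratios carry exact conditional binomial intervals for Poisson counts and shares exact Clopper-Pearson intervals, at 95%, and cover counting error only. UMIs were thinned without replacement to 1400 per barcode, leaving out 115 and 84 shallower NK barcodes and 3 and 0 ILC1-like ones. Genes needed 20 UMIs over both libraries, or 100 for the stricter background, to be counted past 1.5-fold.

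Named genes are the members, Ccl3, Ccl4 and Xcl1, up to 4 genes per list with the largest ratio, and the 12 genes most like the members. Ratios were tested on simulated Poisson counts of 7226 NK genes, 200 of them changed. The median of those doubled was 2.02, and intervals held the true value for 95.0%. The simulated counts have the form that the intervals assume, so such a share was built in. They leave out the clumping of UMIs in few barcodes seen for Nr4a1 and Egr1. Analysis used Python 3.11.15, scipy 1.17.1 and scanpy 1.11.5. Alternatives covered scaling, depth, doublets, gates, clustering (Leiden resolution 1.0) and high or stressed barcodes. Gene coordinates are from GENCODE M21.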

Additional observations from a re-analysis of the deposited data

Results flagged for a closer look

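Only members with more than 3 UMIs in the ILC1-like barcodes of a library were compared, which left Egr1 and Nr4a2. For these, and for all members summed, the ratio of the 3xTg-AD over the wildtype library pointed in opposite directions in NK and ILC1-like barcodes. Below that floor, Nr4a1 (2 and 0 UMIs), Egr2 (3 and 1) and Egr3 (2 and 0) did so too. Nr4a3 (2 and 3 UMIs) had a ratio above 1 in both classes. The difference between the classes was not tested. For all 6 members summed the ratio was 1.44 in NK barcodes and 0.297 in ILC1-like barcodes (31 and 7 UMIs). For Egr1 it was 1.18 and 0.164 (16 and 2 UMIs in ILC1-like barcodes), and for Nr4a2 it was 1.27 and 0.219 (6 and 1 UMIs). A single wildtype ILC1-like barcode, with 9754 UMIs in all, held 11 of the 16 Egr1 UMIs. Without it the ILC1-like ratio was 0.517 for Egr1 (0.0492 to 3.16) and 0.502 for all members (0.177 to 1.26), both with intervals that hold 1.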

How the results depend on the processing

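No paired analysis was possible because each group has 1 library, and for the same reason no replicate could be left out. Under 226 alternatives in all, 206 values stayed within the interval of the reported value (counts within 1.5-fold). Many of these intervals are wide, so staying within one says little about stability: the Egr3 ratio of detected shares ranged from 0.804 to 2.66, and the Egr1 share ratio by Nr4a1 in wildtype was 8.85 at 1400 and 3.77 at 2000 UMIs. In NK barcodes, leaving out the 1% of barcodes with most UMIs of a gene gave 2.81 for Nr4a1, 2.12 for Nr4a3, 5.61 for Egr2 and 1.83 for Ccl4, and Egr3 had no wildtype UMI left there. Since this removes nearly as many positive barcodes from each library, a member's ratio above 1 tends to grow by construction. As a mean of per-barcode CPM the ratio was 0.949 for Egr1 and 1.29 for Ccl4, and Xcl1 reversed to 0.982. After thinning it was 0.928 for Egr1 and 1.32 for Ccl4, and Xcl1 reversed to 0.917. Xcl1 also reversed, to 0.987, without the 10% of barcodes with the largest heat-shock share, and was 1.03 with ILC1-like barcodes gated on thinned UMIs. In ILC1-like barcodes the ratio of all members was 0.744 after thinning. With a minimum of 20 in place of 100 UMIs, genes at least 1.5-fold higher made up 6.46% in place of 3.52%, and lower 5.65% in place of 2.35%. With a minimum of 100 UMIs for the lists, the genes at least 1.5-fold lower were 1 of the immediate early, 1 of the NFAT and 0 of the EGR list, and those higher were 1 of the NFAT and 1 of the NR4A partner list. These counts changed because fewer genes were tested. The cause of the other changes was not tested. The number of members at least 1.5-fold higher stayed between 2 and 4. The ILC1-like class is limited by its 101 and 79 barcodes, in which no member reached 20 UMIs.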
